A study of Homo sapiens with 4 samples.

Results

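Segmental duplication and genomic disorder regions are stretches of the genome that carry near-identical blocks in more than 1 place and that are lost, gained or inverted in recurrent human disorders. The 10 regions described here are defined by hg19 positions alone, and they were chosen with earlier results of these data known. In Mb they were 1q21.1 (144.6 to 149.7), 5q13.2 (68.8 to 70.7), 7q11.23 (72.0 to 76.7), the distal (6.8 to 8.2) and proximal (11.8 to 12.6) blocks of 8p23.1, 10q11.2 (46.0 to 51.9), 15q13 (28.3 to 32.9), 16p11.2 (28.3 to 30.4), 17q21.31 (43.5 to 45.0) and 22q11.2 (18.6 to 21.9). Together they measured 31.3 Mb, or 1.03% of the spans of chromosomes 1 to 22 and X. A peak counted as a member when it shared at least 1 bp with a region. By this rule 1418 of 326674 peaks of list 1 (0.434%) and 1061 of 264919 peaks of list 2 (0.401%) were members. The lists came from chromatin immunoprecipitation of H3K9me3, the trimethyl mark of constitutive heterochromatin, in U2OS cells, a human osteosarcoma line that the labels also tie to the name KRAB-IDR3-TCF3. The labels gave 2 samples with the antibody and 2 input samples without it, and nothing states whether these came from separate cultures. Both lists are named as immunoprecipitations in their peak names, while the labels point both input samples to list 1, so neither list was given to a group. Each list is 1 set of values without a replicate error, the depth behind it is unknown, and no test was possible.

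Segmental duplications arise when long blocks of DNA are copied within or between chromosomes and keep nearly the same sequence. During meiosis, 2 copies that flank a stretch of single-copy DNA can pair with each other, and crossing over between them deletes, duplicates or inverts what lies between. The deletion at 7q11.23 causes Williams-Beuren syndrome, that at 22q11.2 DiGeorge syndrome, and loss of SMN1 in the duplicated block of 5q13.2 causes spinal muscular atrophy. Microdeletions and duplications at 1q21.1, 15q13.3, 16p11.2 and 17q21.31 are linked to developmental delay. A short sequencing read from a block with near-identical copies can match several places equally well, and the sources used here do not say how such reads were handled. In chromatin, H3K9me3 is bound by HP1 proteins and marks silent repeats and gene-poor DNA.

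The sequence of a duplicated block can be read from gene starts that lie in it, and the starts of 2 gene pairs are shown because their copies cannot be told apart over the printed length. SERF1A and SERF1B are copies of one gene in 5q13.2, next to SMN1 and SMN2. SULT1A3 and SULT1A4, which code for a sulfotransferase that acts on catecholamines, lie beyond either end of the gene row SPN to CORO1A in 16p11.2. The bases come from RefSeq on GRCh38.p14, a later build than the peaks, so their positions do not compare with those of the peaks. SERF1A is read from chr5:70900419-70900718, SERF1B from chr5:70025001-70025300, SULT1A3 from chr16:30199005-30199304 and SULT1A4 from chr16:29459663-29459962, all on the + strand. Lower case gives the 250 bases before the gene start and capitals the 50 bases from it on.
SERF1A: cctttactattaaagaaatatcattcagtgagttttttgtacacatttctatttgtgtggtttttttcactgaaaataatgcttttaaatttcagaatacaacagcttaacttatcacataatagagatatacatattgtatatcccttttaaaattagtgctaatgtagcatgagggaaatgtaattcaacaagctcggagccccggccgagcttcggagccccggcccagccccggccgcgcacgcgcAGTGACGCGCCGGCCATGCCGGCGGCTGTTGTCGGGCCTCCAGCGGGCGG
SERF1B: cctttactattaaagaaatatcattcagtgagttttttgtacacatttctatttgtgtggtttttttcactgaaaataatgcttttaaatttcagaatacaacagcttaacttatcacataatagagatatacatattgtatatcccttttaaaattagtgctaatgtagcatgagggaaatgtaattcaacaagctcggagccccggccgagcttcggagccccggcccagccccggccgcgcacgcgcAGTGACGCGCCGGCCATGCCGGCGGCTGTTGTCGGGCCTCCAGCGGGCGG
SULT1A3: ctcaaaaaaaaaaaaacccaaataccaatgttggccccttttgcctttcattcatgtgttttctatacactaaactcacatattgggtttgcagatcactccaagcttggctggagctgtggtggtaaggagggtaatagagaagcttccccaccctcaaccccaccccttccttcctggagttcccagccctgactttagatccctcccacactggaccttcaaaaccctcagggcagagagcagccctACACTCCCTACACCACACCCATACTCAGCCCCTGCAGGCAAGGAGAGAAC
SULT1A4: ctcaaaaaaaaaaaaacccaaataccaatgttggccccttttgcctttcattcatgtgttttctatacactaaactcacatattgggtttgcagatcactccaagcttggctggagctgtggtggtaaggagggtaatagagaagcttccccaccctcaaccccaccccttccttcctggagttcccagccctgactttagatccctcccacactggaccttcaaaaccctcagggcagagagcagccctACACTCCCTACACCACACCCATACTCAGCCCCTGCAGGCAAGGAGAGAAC

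Both pairs were identical over all 300 bases, with 0 differences. Of 20 gene pairs named from general knowledge as copies within these regions, 13 had both promoters in the RefSeq table, and these 2 were the identical ones. In the other 11 pairs 42.7% to 86.3% of the bases matched. The annotated starts of 2 copies need not lie at the same base, so a low value does not measure how far the blocks differ. A stretch of 100 bases that also stood in a promoter elsewhere was found for 16 of the 29 paired genes with an entry (55.2%) and for 0 of 99 genes with an entry that lie between anchor genes of the regions, 5q13.2 left out. At 5q13.2 the anchors SMN1 and SMN2 are themselves copies, and the 1 gene with an entry there, SERF1A, had such a stretch. DGCR6L counted both as a paired gene and as a gene between anchors, and 8p23.1 gave 0 genes with an entry. Among all 27305 promoters of the table the share was 2.38%. The pairs were named because they are copies and the other genes because they lie between anchors. The difference between the sets therefore follows from that choice and is no result about the regions.

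Peaks were sparse in these regions compared with the DNA around them. List 1 covered 19.1% of their summed length and list 2 covered 11.9%, against 45.0% and 25.2% of all spans. Gaps of the build were not taken out of these lengths. Most of the peaks were weak: 0.19% of all peaks in list 1 and 2.07% in list 2 had a peak caller's q of at most 0.05. Of 326674 peaks in list 1, 62093 reached the −log10 p of the weakest peak of list 2 (1.58). The shares of the 2 lists are therefore not at one cutoff. Set against the 2 Mb on either side, 9 of the 10 regions were covered less than their flanks in each list. Of all 1 Mb windows, 49.8% in list 1 and 52.7% in list 2 were covered less than their own 2 Mb flanks. The median ratio of region to flanks was 0.211 in list 1 and 0.228 in list 2, beside 1.00 and 0.97 over all windows. With peak-free stretches of at least 100 kb taken out of regions and flanks, the medians were 0.603 and 0.778, and 7 regions in list 1 and 6 in list 2 were covered less than their flanks. A ratio under 0.25 was found for 6 regions in list 1, against 3.19% of all windows, and for 5 in list 2, against 4.57%. The regions are 0.8 to 5.9 Mb long, so the windows match them in kind but not in length.

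**Figure D1:**
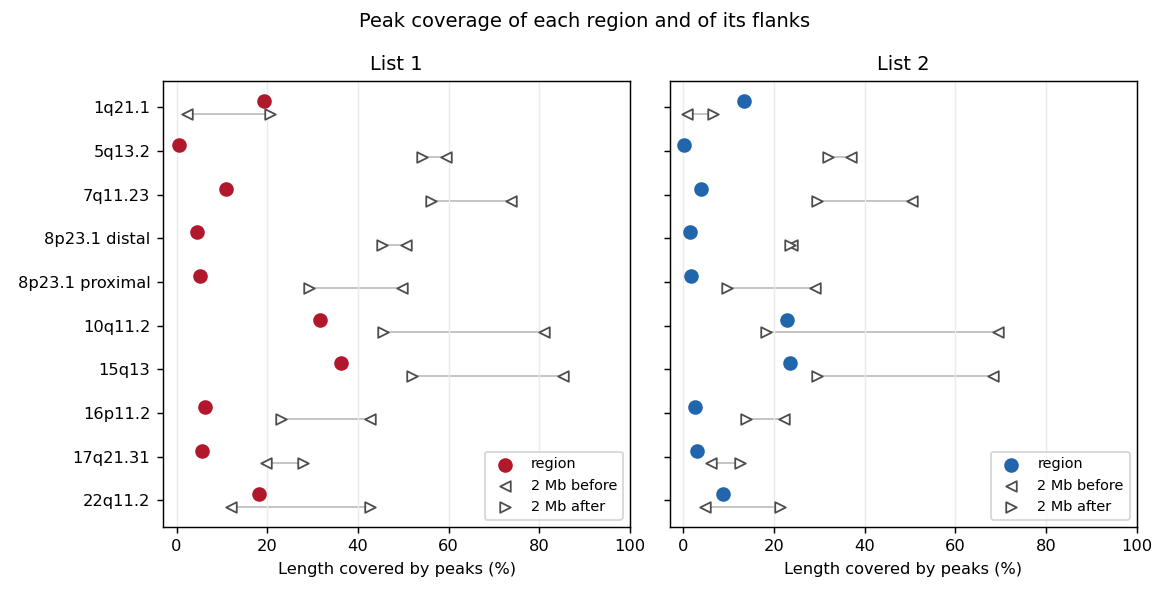
Share of length covered by peaks (horizontal axis, %) for each region (filled circle) and for the 2 Mb before and after it (open triangles), in list 1 and list 2. Every circle lies left of both triangles except those of 1q21.1, 22q11.2 and, in list 2, 10q11.2.

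The regions are taken here in the order of their ratios in list 1. 5q13.2 was almost bare, with 0.643% covered in list 1 and 0.0998% in list 2, against 56.8% and 34.5% in its flanks. The distal block of 8p23.1 followed with 4.59% and 1.40%, against 48.0% and 23.8%, and the proximal block with 5.12% and 1.79%, against 39.5% and 19.3%. 7q11.23 was covered 10.9% and 4.0%, against 64.9% and 39.9%, and 16p11.2 was covered 6.17% and 2.52%, against 32.8% and 17.9%. 17q21.31 had 5.59% and 2.94% beside flanks that were themselves sparse, at 23.9% and 9.29%. 10q11.2 (31.7% and 22.8%, against 63.3% and 43.9%) and 15q13 (36.3% and 23.6%, against 68.5% and 48.9%) had ratios between 0.482 and 0.530. At 22q11.2 the values were 18.3% and 8.68%, against 27.4% and 13.04%, but its side towards the centromere was covered only 12.1% and 4.73%, less than the region itself.

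1q21.1 was the exception. It was covered 19.2% in list 1 and 13.4% in list 2, against 11.4% and 3.74% in its flanks, ratios of 1.68 and 3.59. Its 2 Mb on the centromere side were covered 2.22% and 0.921%, and those on the far side 20.6% and 6.56%. Against the far side alone the ratio was 0.930 in list 1 and 2.05 in list 2, so the direction in list 1 rested on the flank next to the centromere. With flanks of 5 Mb the ratios were 1.01 and 1.42.

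Long peak-free stretches made up much of every region. A stretch between neighbouring peaks was counted when at least 100 kb of it lay inside a region. List 1 had 43 of them and list 2 had 41, with a median length of 305 kb and 382 kb. They took 15.6 Mb or 49.7% of the regions in list 1 and 18.1 Mb or 57.7% in list 2. Over all chromosomes such stretches took 8.80% and 14.2% of the spans, and without those of 2 Mb or more, which include the centromere gaps, 2.57% and 7.65%. Counted in windows of 100 kb, 114 of 313 in the regions (36.4%) had no peak in list 1 and 143 (45.7%) had none in list 2, against 19 (4.75%) and 30 (7.50%) of 400 flank windows. The blocks of 8p23.1 lie 3.6 Mb apart, so their facing 2 Mb flanks overlap and some flank windows were counted more than 1 time. Among all windows of 100 kb, 7.67% in list 1 and 9.61% in list 2 had no peak.

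**Figure D2:**
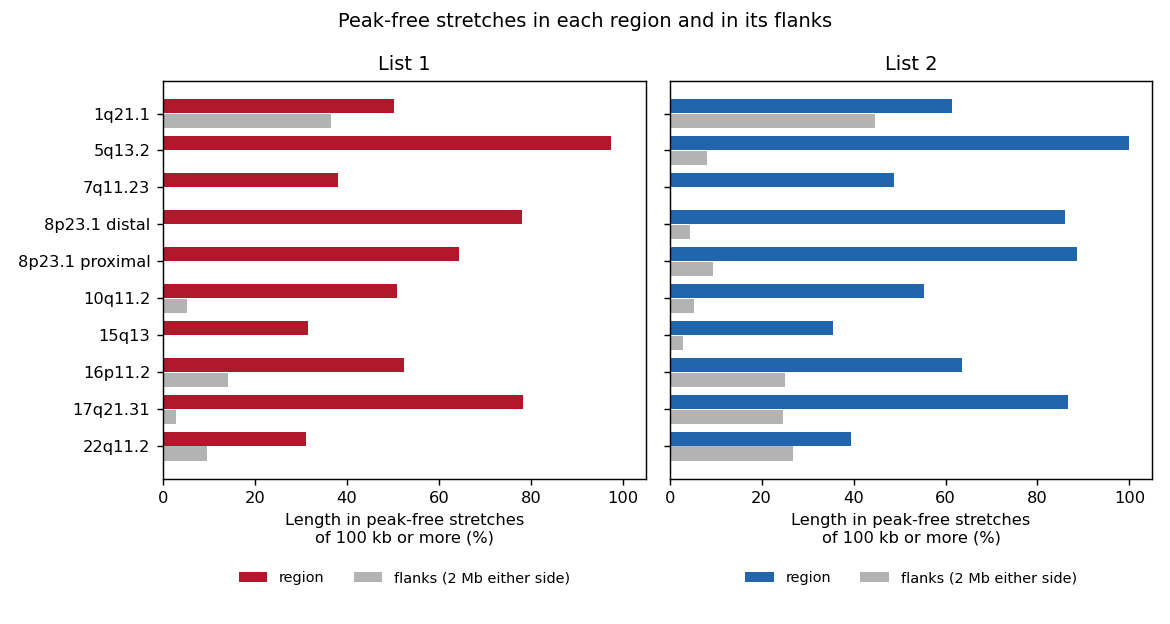
Share of length (horizontal axis, %) in peak-free stretches of at least 100 kb for each region (coloured bars) and its flanks (grey bars), in list 1 and list 2. The share ranges from 31.0% at 22q11.2 to 97.4% at 5q13.2 in list 1. In both lists the flanks of 1q21.1, 16p11.2, 22q11.2, 10q11.2 and 17q21.31 also hold such stretches, with larger shares in list 2. In list 2 the flanks of every region except 7q11.23 hold some.

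The stretches of the 2 lists largely overlapped, but their ends often differed. Of their length in list 1, 99.8% was also in a stretch of list 2, and of their length in list 2, 86.0% was in a stretch of list 1. All 43 stretches of list 1 met one of list 2, and the ends of such pairs lay a median of 24.5 kb apart. Of 86 ends, 28 lay within 5 kb of their partner, and 6 stretches had both ends that near. In places several stretches of list 1 met the same longer stretch of list 2. At 22q11.2, the lowest, 97.4% of the length in list 1 was shared. The lists come from one cell line and use one build, so shared places do not show that the lists are independent. The overlap was not measured for stretches outside the regions, so it is not shown to be particular to them.

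**Figure D3:**
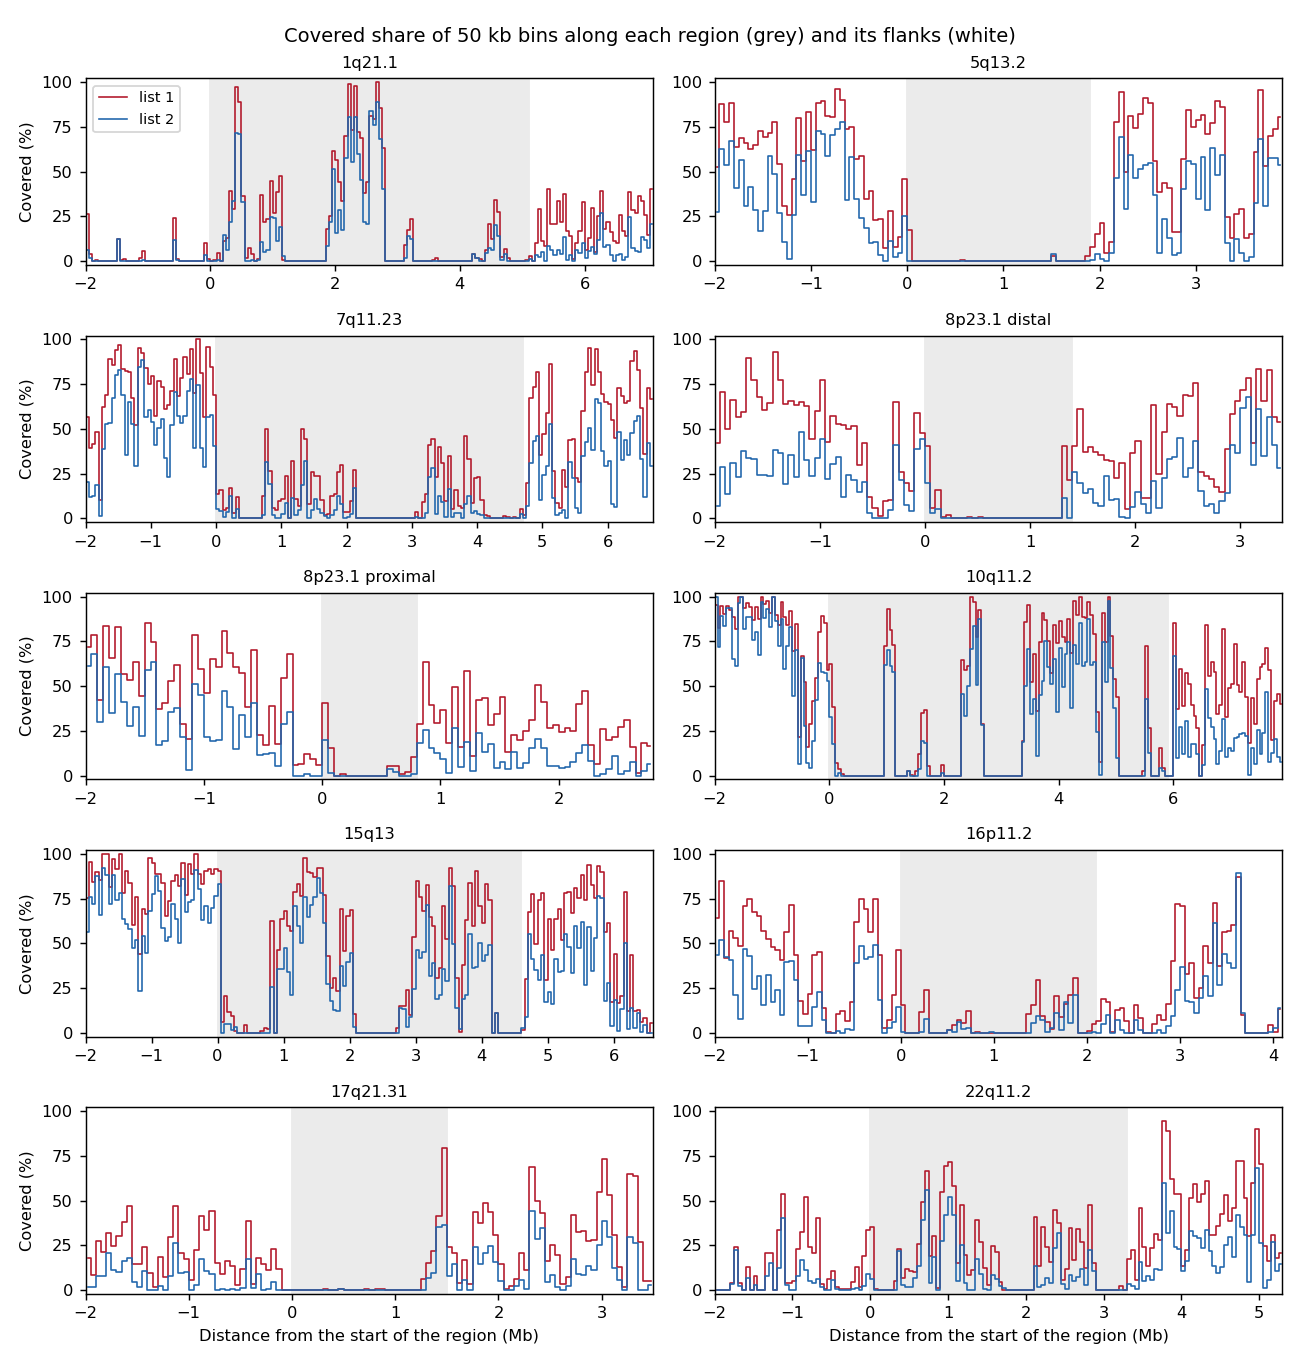
Share of each 50 kb bin covered by peaks (vertical axis, %) against the distance from the start of the region (horizontal axis, Mb), for list 1 (red) and list 2 (blue), with the region in grey and its flanks in white. Coverage stands in separate islands between bare stretches at 10q11.2, 15q13, 22q11.2 and 1q21.1, while 5q13.2 is nearly bare.

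In most of the regions that had them, intervals taken to lie between duplicated blocks were covered more than the rest of the same region. These intervals were placed from general knowledge of hg19 to the nearest 0.1 Mb, 9 in 7 regions. In 6 of the 7 regions, in both lists, the intervals were covered more than the rest of the region. The median ratio of interval to rest was 4.43 in list 1 and 5.08 in list 2. In list 1, bare stretches took 1.66% of the intervals and 65.3% of the rest at 1q21.1. They took 3.30% and 70.2% at 10q11.2, and 18.4% and 78.0% at 22q11.2. The shares were 2.18% and 53.2% at 7q11.23, 7.89% and 43.0% at 15q13, and 10.2% and 78.3% at 16p11.2. 17q21.31 went the other way, with 99.9% of the interval and 67.5% of the rest. The interval at 22q11.2 ran from 18.9 to 21.5 Mb and held a bare stretch of 424 kb in list 1. DGCR6L, one of the paired genes, is among the genes between its anchors, so this interval need not be free of copies. Of the 18 interval bounds, 11 in list 1 and 10 in list 2 lay within 50 kb of the end of a bare stretch, while 22.8% and 20.3% of the regions' length lay that near to one. With bare stretches left out of both sides, the median ratio was 1.07 in list 1 and 1.16 in list 2, with 17q21.31 counted although the peaks were all that was left of its interval (0.631 kb and 0.37 kb). No map of duplications, gaps or mappability on hg19 was used, and the part that reads with several equal matches played in the bare stretches was not tested.

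**Figure D4:**
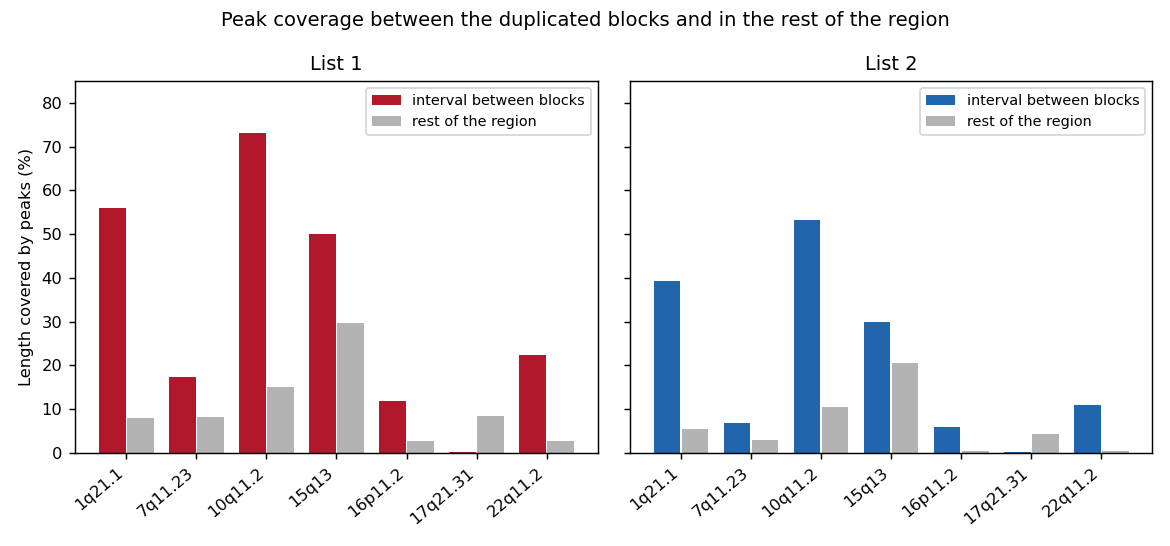
Share of length covered by peaks (vertical axis, %) between the duplicated blocks (coloured bars) and in the rest of the same region (grey bars), for the 7 regions with such an interval, in list 1 and list 2. The interval is the higher bar in every region except 17q21.31.

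10q11.2 showed the islands most plainly. It held 251 peaks in list 1 and 284 in list 2, and 8 bare stretches in each. Its largest island ran from 49390188 to 51043896 and was covered 75.8% in list 1 and 55.3% in list 2. Of the 9 islands in list 1, 2 shorter ones were covered more, from 48301199 to 48664338 (79.9% and 61.9%) and from 46955537 to 47149002 (82.5% and 64.8%). A piece of 3.06 kb was a single peak, and the remaining 5 islands were covered 2.58% to 42.0%. In list 1 a bare stretch of 739 kb (46216370 to 46955536) ended at the dense island of 193 kb, and 1 of 726 kb (48664339 to 49390187) lay between the other two dense islands. List 2 had stretches of 796 kb and 726 kb there. The peak of highest fold ended where a bare stretch began in both lists. In list 1 it ran from 47133599 to 47149002 with a fold of 3.08, and list 2 had it at 47135301 to 47148221 with a fold of 3.85. The widest peak of list 1 spanned 99.8 kb, from 50827330 to 50927081, and that of list 2 spanned 55.7 kb, from 48608550 to 48664218. Outside the bare stretches the region was covered as much as its flanks, 66.9% against 66.7% in list 1 and 52.9% against 46.3% in list 2. In the RefSeq gene order 8 named protein-coding genes run from WDFY4 to ERCC6, the gene of a repair helicase that is lost in Cockayne syndrome.

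15q13 held 2 broad islands. The first ran from 28971371 to 30361321 and was covered 57.8% in list 1 and 40.1% in list 2. The second, from 31018372 to 32517329, was covered 52.9% and 31.8%. They were parted by a bare stretch of 657 kb in list 1 (30361322 to 31018371) and 707 kb in list 2 (30361097 to 31067611), and another from 32517330 in list 1 and 32517077 in list 2 ran past the end of the region. The widest peak of list 1, 68.6 kb from 29567738, and that of list 2, 22.4 kb from 29605469, lay in the first island. The highest folds were 2.74 in list 1 (32515561 to 32517329) and 3.56 in list 2 (30231410 to 30236860). In the RefSeq order 6 named protein-coding genes run from FAN1, a nuclease of DNA crosslink repair, to CHRNA7, a nicotinic acetylcholine receptor subunit, with TRPM1 and KLF13 between them. Outside the bare stretches the region stayed below its flanks, at 53.0% against 69.2% in list 1 and 36.6% against 50.6% in list 2.

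At 1q21.1, 1 island stood out. It ran from 146478941 to 147394975, 916 kb long, and was covered 66.1% in list 1 and 50.2% in list 2. Bare stretches of 694 kb before it (145785147 to 146478940) and 339 kb after it (147394976 to 147734386) bounded it in list 1. The distal deletion interval of 1q21.1, which falls almost wholly in it, was covered 69.1% and 52.5%, and the interval of the TAR syndrome (thrombocytopenia with absent radius) 30.0% and 13%. The peaks of highest fold lay in another island, at 145028987 to 145060440 with a fold of 3.17 in list 1 and at 145036931 to 145056162 with a fold of 4.16 in list 2. The widest peaks lay in the 916 kb island, with 53.9 kb in list 1 and 41.8 kb in list 2. The longest bare stretch of list 2 spanned 1021 kb, from 147827179 to 148848128, where list 1 had stretches of 363 and 627 kb.

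22q11.2 repeated the pattern at lower coverage. Islands ran from 18918165 to 20284666 (27.4% in list 1 and 14.9% in list 2) and from 20709046 to 21464884 (27.6% and 10.4%). The bare stretches of list 1 lay before, between and after them, with 260 kb from 18657773, 424 kb from 20284667 and 339 kb from 21464885. List 2 had 4, the longest with 438 kb inside the region, and 1 of these, 125 kb from 19836010, was covered over 16.3 kb in list 1. The highest folds were 2.77 in list 1, from 19538437 to 19543382, and 4.01 in list 2, from 19833955 to 19836009. The widest peaks measured 22.1 and 19.4 kb. In the RefSeq order 38 named protein-coding genes run from DGCR2 to LZTR1, among them TBX1, a transcription factor of heart and pharyngeal development, and DGCR8, a partner of Drosha in microRNA processing.

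7q11.23 and 16p11.2 were sparse outside the bare stretches as well. At 7q11.23 the island from 72730511 to 74139570, which overlaps the Williams-Beuren interval (72.7 to 74.1 Mb), was covered 18.1% in list 1 and 7.34% in list 2. A second island, from 75057982 to 76194696, was covered 18.9% and 5.91%. The bare stretch between them measured 918 kb in list 1 (74139571 to 75057981) and 932 kb in list 2 (74128347 to 75060335). Outside the bare stretches the region was covered 17.5% against 64.9% in its flanks in list 1, and 7.80% against 39.9% in list 2. The flanks had 0 bare stretches in either list. The highest fold lay at the same place in both lists, with 2.90 at 73510903 to 73513937 in list 1 and 4.11 at 73510800 to 73512249 in list 2. The widest peaks, of 17.1 and 15.1 kb, also shared their place, at 72794234 to 72811382 and 72794453 to 72809560. In the RefSeq order 23 named protein-coding genes run from FKBP6 to GTF2I, among them ELN, which codes for elastin, the kinase LIMK1 and the chromatin remodelling subunit BAZ1B.

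At 16p11.2 the island from 29655757 to 30197789, which overlaps the proximal deletion interval (29.6 to 30.2 Mb), was covered 15.8% in list 1 and 7.65% in list 2. The island over the distal interval, from 28823493 to 29121326, was covered 5.29% and 2.11%. A bare stretch of 534 kb parted them in list 1 (29121327 to 29655756), while list 2 had 2 there, of 267 and 409 kb. Outside the bare stretches 12.9% was covered against 38.2% in the flanks in list 1, and 6.92% against 24.0% in list 2. The widest peaks measured 8.50 kb in list 1 and 8.56 kb in list 2, and the highest folds were 2.37 (30094452 to 30099001) and 2.66 (29824012 to 29826452). In the RefSeq order 27 named protein-coding genes run from SPN to CORO1A, among them the kinases MAPK3 and TAOK2 and the T-box factor TBX6, and 9 run from ATXN2L to LAT, among them SH2B1, an adaptor of leptin and insulin signalling.

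5q13.2 held 8 peaks in list 1, which covered 12.2 kb, and 1 peak in list 2, which covered 1.90 kb. The peak of list 2 ran from 70308235 to 70310130 with a fold of 2.11, after a bare stretch of 1508 kb inside the region. In list 1, bare stretches of 552, 932 and 366 kb followed each other with little between them. A peak of 311 bp, from 69375046 to 69375356, parted the first from the second and had the highest fold of the region, 2.57. The widest peak of list 1 there measured 4.39 kb. Flank coverage on both sides was high, 59.4% and 54.1% in list 1 and 37.0% and 32.0% in list 2.

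17q21.31 was the region where the interval itself was bare. Its interval, 43.7 to 44.2 Mb, was covered 0.126% in list 1 and 0.0740% in list 2, against 8.32% and 4.37% of the rest of the region. Bare stretches took 78.3% and 86.7% of the region. The longest measured 432 kb in list 1 and 830 kb in list 2. They ended at 44788844 in list 1 and at 44800388 in list 2, and from there to the end of the region 39.0% was covered in list 1 and 21.9% in list 2. The highest folds lay there, 2.30 in list 1 (44917144 to 44923858) and 2.77 in list 2 (44917546 to 44923392), as did the widest peaks, of 12.9 and 10.2 kb. That last part held 23 of the 28 peaks of list 1 and 17 of the 18 of list 2. In the RefSeq order 5 named protein-coding genes run from CRHR1, a receptor of corticotropin-releasing hormone, to KANSL1, a subunit of a histone acetyltransferase complex, with MAPT, the gene of the microtubule protein tau, between them. The build also holds an alternate haplotype of this locus as a separate contig, on which both lists had 0 peaks, but all alternate haplotype contigs together had 0 peaks in list 1 and 1 in list 2. The part of reads that match both copies was not tested.

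At 8p23.1 the blocks can be set beside the DNA between them, but not on equal terms. Nothing was adjusted for reads with several equal matches or for gaps of the build, and their part was not tested. The 3.6 Mb between the blocks, which in the RefSeq order hold 20 named protein-coding genes from MFHAS1 to CTSB with the heart factor GATA4 among them, were covered 45.3% in list 1 and 23.9% in list 2. The distal block, known for the defensin genes of innate immunity, had 33 peaks in list 1 and 10 in list 2. Its longest bare stretch measured 772 kb in list 1 (7335711 to 8107490) and 1204 kb in list 2 (6908962 to 8113327). The proximal block had 26 and 12 peaks, with a longest bare stretch of 413 kb (11984195 to 12397312) and 543 kb (11854752 to 12398048). The highest folds were 2.07 in list 1 and 3.09 in list 2 in the distal block, and 2.07 and 2.66 in the proximal one. The widest peaks measured 9.45 and 3.90 kb in the distal block, and 4.43 and 3.24 kb in the proximal one. Between the blocks list 1 had 0 such stretches, and list 2 had 2, which took 7.06% of the length.

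The folds of single peaks in the regions lay around those of the whole lists. The authors' deposited fold of a peak over the caller's background reached 3.17 in list 1 and 4.16 in list 2, both at 1q21.1. Median folds of the regions lay between 1.55 (16p11.2, 5q13.2 and the proximal block of 8p23.1) and 1.74 (10q11.2 and 15q13) in list 1. In list 2 they lay between 2.02 (16p11.2) and 2.25 (1q21.1). Over all peaks the median was 1.64 in list 1 and 2.12 in list 2. A q of at most 0.05 was reached by 7 members in list 1 (0.494%), against 0.19% of all its peaks, and by 51 in list 2 (4.81%), against 2.07%. In list 2, 14 of them lay at 1q21.1, 11 at 10q11.2, 11 at 15q13, 10 at 22q11.2, 4 at 7q11.23 and 1 in the distal block of 8p23.1. In list 1, 3 lay at 1q21.1, 3 at 10q11.2 and 1 at 7q11.23. Peaks were narrower than in the flanks at 7q11.23, with medians of 1335 and 1043 bp against 2936 and 1902 bp, and wider at 10q11.2, with 3096 and 2412 bp against 2157 and 1666 bp. Base pairs covered in either list were covered in both to 0.652 at 10q11.2 and 0.621 at 1q21.1 (Jaccard index), to 0.277 at 7q11.23 and to 0.00959 at 5q13.2. The other regions lay between 0.215 (proximal block of 8p23.1) and 0.547 (15q13). The value of 5q13.2 rested on 8 peaks in list 1 and 1 in list 2. This index was not taken over the flanks or the whole lists, so the values have no baseline. U2OS cells carry an uneven number of copies of their chromosomes, and no value was adjusted for it.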

How the data were processed

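The deposited files were 2 broad peak lists on hg19, without headers. Per the submitters' processing notes, the tools were MACS2 2.2.7.1, Bowtie2 2.5.0, Trim Galore 0.6.7 and bcl2fastq 2.17, with no role given for each. The sources used here do not give the cutoff, the control, the pooling or the treatment of duplicates and of reads with several matches. The authors deposited a fold for every peak, the ratio of its signal to the peak caller's background, and its −log10 p and −log10 q.

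Chromosomes 1 to 22 and X were used, with spans up to the last peak end. Peaks were clipped at region bounds for covered length. The 2 flanks of 2 Mb were summed. Covered lengths and stretches were checked base by base on made-up intervals. Intervals between duplicated blocks, gene pairs and anchor genes came from general knowledge, and regions, lists and tests were chosen with earlier results of these data known. The rule for named items took every region with its widest peak, its peak of highest fold and its longest stretch in each list. The comparison of promoters was added after the peaks had been seen. The RefSeq tables, on GRCh38.p14, gave names, gene order and promoters. Promoters were entered for 99 of the 143 named genes between the anchors, 5q13.2 left out. Coordinates are 1-based. Python 3.11.15, numpy 2.4.6 and pandas 2.3.3 were used, with edlib for promoter differences.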

Additional observations from a re-analysis of the deposited data

How the results depend on the processing

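No paired analysis was possible because each list is 1 set of values that belongs to no sample. The depth is unknown. A ratio was taken to hold when it kept its side of 1 and stayed within 1.5 times. Over all alternatives, 123 ratios of single regions to flanks held, 38 kept their side but moved farther, and 9 changed side. For ratios of interval to rest in single regions the counts were 39, 19 and 5. With list 1 limited to the smallest −log10 p of list 2, its ratio at the proximal block of 8p23.1 went from 0.130 to 0.0144. At 1q21.1 it went from 1.68 to 3.53. The ratio to the left or right flank alone was added after seeing the data. The number of regions covered less than their flanks was 9 in both lists with flanks of 1 or 5 Mb, with peaks above the median fold, with base pairs in both lists, with fold weights, and in list 1 with peaks limited to the smallest −log10 p that list 2 holds. With peaks of −log10 q of at least 2, list 1 gave no ratio, and in list 2 the count was 4 of 6 regions with a ratio and the median 0.149.

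With peak-free stretches taken out, the median ratio to the flanks became 0.603 (list 1) and 0.778 (list 2). The direction then turned at 10q11.2 (1.00 and 1.14), at 17q21.31 (1.05 and 1.79) and, on 1.90 kb, at 5q13.2 in list 2 (2.62). The ratio of interval to rest was then 1.07 and 1.16, and it turned at 22q11.2 in list 1 (0.846) and at 7q11.23 (0.991) and 15q13 (0.860) in list 2. At 17q21.31 it was 3.91 and 4.57, but only peaks were left of the interval, so these values are fixed by construction on its side. Against the left flank alone 22q11.2 turned to 1.51 and 1.84, and against the right flank alone 1q21.1 turned to 0.930 in list 1 and 10q11.2 to 1.25 in list 2. A minimum of 50 kb gave 69 and 87 stretches. Leaving out each region in turn, the median ratio lay between 0.188 and 0.234 in list 1 and between 0.140 and 0.316 in list 2, and the count of regions ranged from 8 to 9. The cause of these changes was not tested beyond the construction of each alternative.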

Other observations

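Some members lay close to a bare stretch. Of the members, 104 (7.33%) in list 1 and 99 (9.33%) in list 2 lay within 10 kb of a peak-free stretch of at least 100 kb. Among all peaks the shares were 0.317% and 1.42%. The regions held 43 of all 349 such stretches in list 1 and 41 of 1364 in list 2. The share of members to be expected from that number of stretches was not worked out. The higher share therefore does not show that members favour the ends of stretches, and its cause was not tested. The median fold of members within 10 kb of a stretch was 1.58 in list 1 and 2.11 in list 2, against 1.67 and 2.17 for members farther away.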
